A study of Mus musculus with 10 samples.

Results

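Siglecs are receptors of immune cells that bind sialic acids, the acidic sugars at the ends of glycan chains on cell surfaces and secreted proteins. Many Siglecs carry tyrosine motifs in their cytoplasmic tails that recruit the phosphatases SHP-1 and SHP-2 and so dampen signalling when sialic acid is bound, others pair with the activating adaptor DAP12, and sialoadhesin, the product of Siglec1, acts mainly in adhesion and uptake. In the lung, alveolar macrophages are known for carrying Siglec-F and sialoadhesin on their surface. The genes described are the mouse Siglec genes Siglec1, Siglecf, Siglece, Siglecg, Siglech, Cd22 and Cd33, chosen by name, 7 of the 24538 genes in the count tables. The gene of Siglec-F is written Siglecf there.

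The study compared metastasis-associated macrophages (MAMs) with resident alveolar macrophages (RAMs) of wild type C57BL6/J mice aged 8 to 10 weeks. MAMs were CD11B+CD11C- cells from dissected lung metastases, which were seeded by injecting the mouse mammary tumour line E0771-LG into the tail vein of females aged 6 to 8 weeks, and metastases were pooled from 2 to 4 mice. RAMs were CD11B-CD11C+ cells from normal lungs. Both populations were gated as large CD45+F4/80+LY6C-MRC1+ cells, and each was represented by 5 RNA-seq libraries. Site (metastasis or normal lung) and sorted population changed together between the groups, so they cannot be told apart. The study describes each sample as a single mouse or a pool of metastases, and the labels do not number the animals. Gene counts ran from 55391447 to 87523247 per MAM library and from 50746305 to 72150650 per RAM library. Levels are given as CPM, a gene's count scaled to 1000000 counts per library after TMM normalization, and levels of different genes are compared only as the FPKM values of the authors, which are scaled by transcript length. A gene passed the test when edgeR's quasi-likelihood method gave it an adjusted p below 0.05, with the Benjamini-Hochberg procedure run over the 11571 tested genes, and it was differentially expressed if its fold change was also over 2.

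Siglec1 was the one Siglec gene higher in MAMs, and Siglecf, Cd22, Siglece and Cd33 were lower. Siglecf, a marker of alveolar macrophages, differed most, with 3.85 ± 0.680 CPM in MAMs and 333 ± 35.6 in RAMs (SD, n = 5 each), 86.4-fold. Siglecg did not pass the test, and Siglech was close to or at 0 and was not tested. Of the 6 tested genes, 1 passed in the direction of MAMs and 4 in that of RAMs, where 28.9% of all tested genes were higher and 27.3% lower in MAMs. The 4 lower genes were differentially expressed, against 15.1% of all tested genes, and no Siglec gene was differentially expressed and higher, against 15.3%. For 5 of the 6, no library of one group overlapped the other group, as for 44.9% of all tested genes. The median log2 fold change of the 6 was -2.13, beside -0.02 over all tested genes. As these are bulk libraries, fewer cells that express a gene and less RNA per cell cannot be told apart.

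**Figure D1:**
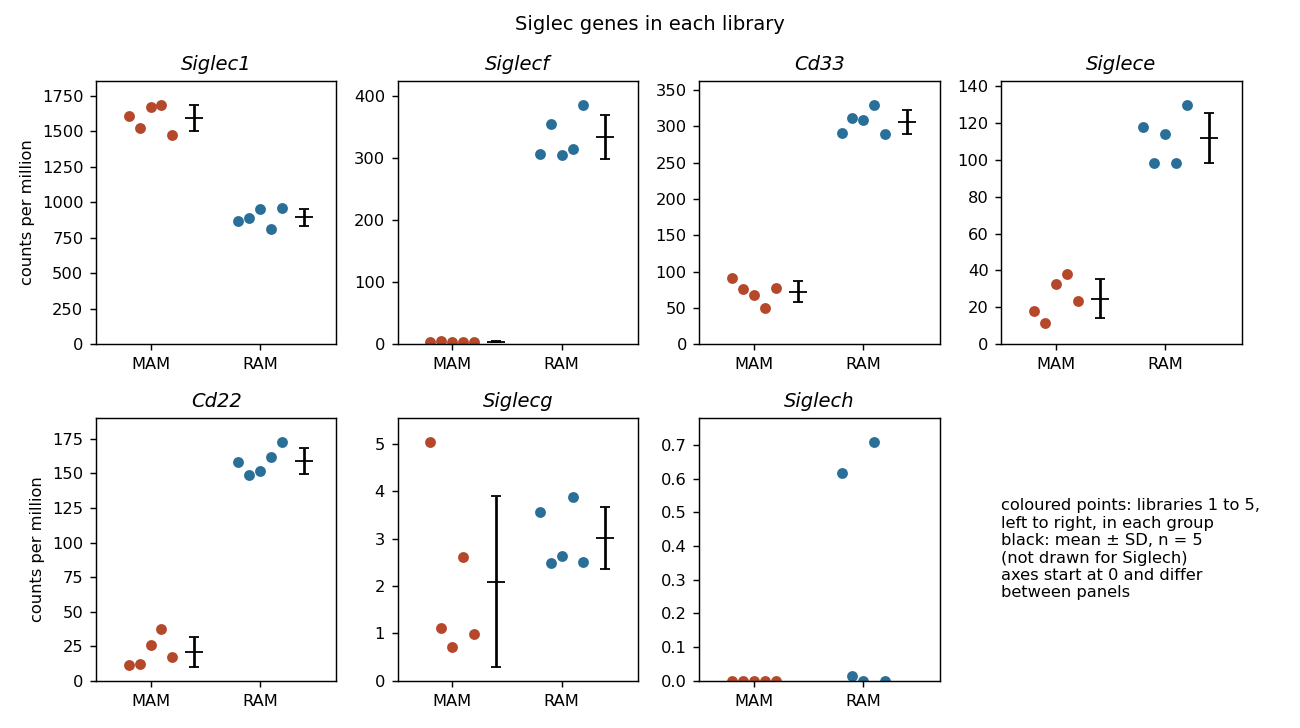
CPM of each Siglec gene (y axes, each starting at 0) in the 5 MAM and 5 RAM libraries (x axes), with the mean ± SD in black except for Siglech. The MAM libraries lie above the RAM libraries for Siglec1, below them for Siglecf, Cd33, Siglece and Cd22, and on both sides of them for Siglecg.

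Siglec1 encodes sialoadhesin (CD169), a macrophage lectin with a long extracellular part and no inhibitory tail motif, whose expression in monocytes and macrophages is known to be raised by type I interferon. It lies on chromosome 2 (chr2:131069220-131086765, minus strand, GRCm38), apart from the other 6 genes, which are all on chromosome 7, and its longest annotated transcript has 21 exons. The MAM libraries held 1608, 1525, 1671, 1686 and 1476 CPM in replicates 1 to 5, and the RAM libraries held 871, 887, 952, 814 and 957 CPM. Every MAM library was above every RAM library, and the spread within a group was small, with a coefficient of variation of 5.73% in MAMs and 6.67% in RAMs. On the log2 scale the difference was 0.83 ± 0.0669 (standard error, adjusted p = 4.6e-08, edgeR), or 1.78-fold, which is under the 2-fold limit. An exact two-sided permutation test over all assignments of 5 and 5 libraries gave p = 0.00794, the smallest it can give, for Siglec1 and for each of Siglecf, Cd22, Siglece and Cd33. Beside this, 15 of 15 genes of a list of type I interferon induced genes were differentially expressed and higher in MAMs, with a median log2 fold change of 6.33. The change in Siglec1 was below that of every gene on that list. The 3 tested genes whose log2 CPM over the 10 libraries lay closest to Siglec1, each centred on its own mean, were Dnajc13, Rap2c and Ranbp2, with root mean square differences of 0.072, 0.0844 and 0.092.

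Siglecf encodes Siglec-F, an inhibitory Siglec known from eosinophils and alveolar macrophages (chr7:43351341-43359531, plus strand). Its level was 3.58, 4.82, 4.25, 3.53 and 3.09 CPM in the MAM libraries and 307, 355, 304, 314 and 385 CPM in the RAM libraries. No MAM library came near a RAM library, and the counts behind the MAM values were 176 to 257 per library. Its log2 fold change came to -6.44 ± 0.140 (standard error, adjusted p = 1.6e-14, edgeR), and 66 of the 11571 tested genes had a lower one. The nearest genes in pattern were Plet1, Map3k7cl and Chil3, with root mean square differences of 0.18, 0.202 and 0.204 on the log2 scale.

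The MAM level of Siglecf was 1.16% of the RAM mean, and 0.928% to 1.45% in single MAM libraries. Other markers of alveolar macrophages had like ratios, with Chil3 at 1.15%, Car4 at 1.12%, Krt79 at 1.03%, Cidec at 0.985% and Fabp1 at 0.897%, while Pparg, the regulator of alveolar macrophage identity, was at 18.2% and the sorting marker Itgax at 17.2%. Of the 9 markers on this list, 8 passed the test as lower in MAMs, Marco did not (log2 fold change -0.67, adjusted p = 0.0762, edgeR), and their summed level was between 392 and 782 CPM in MAMs and between 10060 and 12780 CPM in RAMs. Among the 81 genes with over 1000 CPM in RAMs, the lowest MAM level was 1.08% of that in RAMs, and among the 116 genes with over 1000 CPM in MAMs the lowest RAM level was 0.912%. After 1% of the other group's level was subtracted from each library, the log2 fold change of Siglecf was -9.24. The source of the Siglecf reads in MAM libraries was not tested. For eosinophils, the other cells known for Siglec-F, the granule protein genes Prg2 and Prg3 had no counts in any of the 10 libraries, which allows up to 3 counts in each, and Epx and Il5ra were below 1 CPM in every library. Of the other 2 markers on this list, Alox15, which macrophages also express, had 16.9 to 176 CPM in MAMs and 0.704 to 1.18 CPM in RAMs (log2 fold change 6.56, adjusted p = 1.8e-07, edgeR), and Ccr3, which was under the FPKM limit, had 0.0375 to 5.55 CPM in MAMs and up to 0.0835 CPM in RAMs. The part of eosinophils in the Siglecf reads was not tested.

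**Figure D2:**
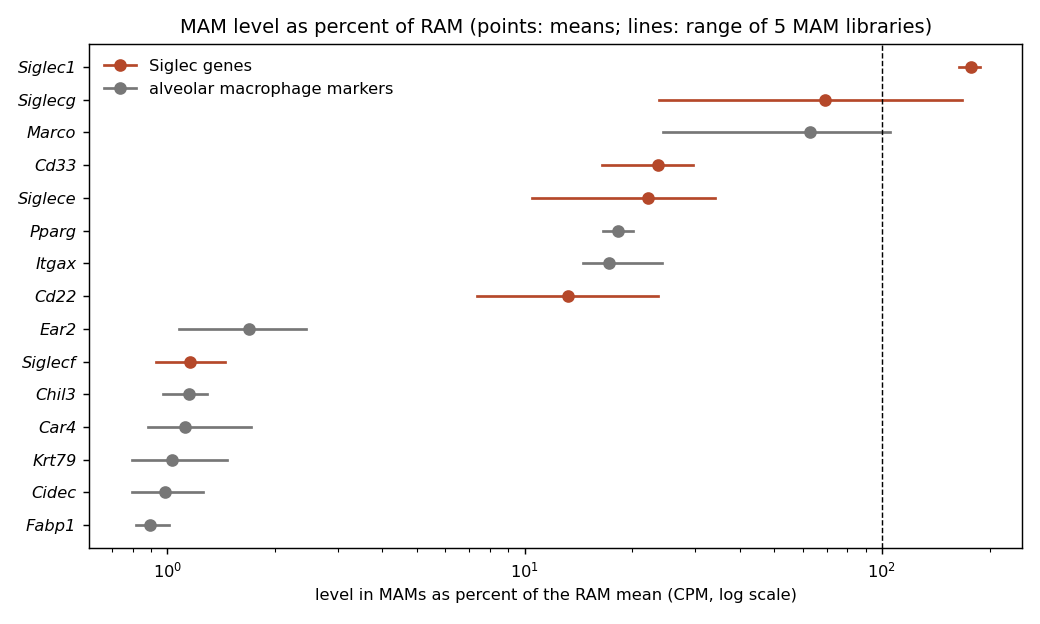
MAM level of the 6 tested Siglec genes and of 9 alveolar macrophage markers as percent of the RAM mean (x axis, CPM, log scale), with points for means and lines for the range of the 5 MAM libraries. Siglecf at 1.16% sits among Ear2, Chil3, Car4, Krt79, Cidec and Fabp1, Cd22, Siglece and Cd33 sit between 13.2% and 23.7%, and Siglec1 is at 178%.

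Cd33, Siglece and Cd22 fell less than Siglecf. Cd33 encodes a myeloid Siglec found on monocytes, macrophages and granulocytes (chr7:43524216-43544428, minus strand). The MAM libraries held 90.6, 76.6, 67.8, 50.3 and 77.2 CPM and the RAM libraries 291, 312, 309, 329 and 289 CPM. The groups were apart by more than the whole range of either, and MAMs differed from RAMs by -2.08 ± 0.126 in log2 (standard error, adjusted p = 1.8e-09, edgeR), 4.22-fold.

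Siglece encodes Siglec-E, an inhibitory receptor of neutrophils and macrophages (chr7:43651070-43660161, minus strand). It had 18.0, 11.7, 32.7, 38.1 and 23.2 CPM in MAM libraries and 118, 98.3, 114, 98.1 and 130 CPM in RAM libraries. The groups did not overlap, but the MAM libraries varied more, with a coefficient of variation of 43.4% against 12.2% in RAMs. The difference in log2 was -2.17 ± 0.250 (standard error, adjusted p = 2.5e-06, edgeR), 4.52-fold. The summed level of 8 neutrophil markers was 4.03 to 18.2 CPM in MAMs and 1.73 to 4.08 CPM in RAMs. The 2 tested, S100a8 and S100a9, passed as higher in MAMs (log2 fold changes 1.12 and 3.47, adjusted p = 0.0353 and 0.0104, edgeR). Over the alternative fits, 0 to 2 of this list passed as higher. The rest were under the FPKM limit, and Elane had no counts in any library. The part of neutrophils in Siglece was not tested.

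Cd22 encodes an inhibitory co-receptor of the B cell receptor (chr7:30865402-30880342, minus strand). The MAM libraries had 11.7, 12.4, 26.1, 37.4 and 17.5 CPM, while the RAM libraries had 158, 149, 152, 162 and 173 CPM. RAM libraries were alike, with a coefficient of variation of 5.92%, and MAM libraries were not, at 51.5%. The fitted difference in Cd22 was -2.92 ± 0.269 on the log2 scale (standard error, adjusted p = 2.2e-07, edgeR), 7.55-fold. Cd22 overlaps the gene Gm29439 on the other strand, and since no source used here gives the strand setting of the counting, reads of the overlap could come from either. B cells, the main known source of Cd22, were measured by 7 marker genes, whose summed level was 6.02, 12.2, 13.8, 32.1 and 16.7 CPM in MAM libraries and 9.47, 17.2, 8.59, 16.6 and 20.0 CPM in RAM libraries. The 2 groups overlapped in this sum, and none of the 4 tested markers passed the test (edgeR). Cd79b, the marker of highest FPKM, had a log2 fold change of 0.37 (adjusted p = 0.738, edgeR). The part of B cells in Cd22 was not tested.

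Among MAM libraries, replicates 3 and 4 held the highest levels of both Cd22 and Siglece and the lowest of Cd33. Replicate 4 also had the highest sums of B cell (32.1 CPM), neutrophil (18.2) and plasmacytoid dendritic cell markers (190.5). Its sum of eosinophil markers was the lowest (19.2). Without replicates 3 and 4 together, a choice made after seeing the data, the log2 fold change was -3.51 for Cd22 and -2.66 for Siglece. Both still passed.

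Siglecg and Siglech had the lowest mean FPKM of the 7 genes in both groups. Siglecg encodes Siglec-G, an inhibitory receptor of B cells and dendritic cells (chr7:43408204-43418358, plus strand). It had 5.04, 1.11, 0.716, 2.61 and 0.991 CPM in MAM libraries and 3.56, 2.49, 2.63, 3.88 and 2.52 CPM in RAM libraries. MAM replicate 1 was above all RAM libraries, 3 MAM libraries were below all of them, and the groups overlapped. The log2 fold change was -0.53 (95% interval -1.59 to 0.53, adjusted p = 0.428, edgeR), an interval that includes a 2-fold decrease. The exact permutation test gave p = 0.135 (two-sided, n = 5 each).

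Siglech encodes Siglec-H, a DAP12-paired receptor known as a marker of plasmacytoid dendritic cells (chr7:55768178-55778925, plus strand). No MAM library held a count, and the RAM libraries held 36, 1, 0, 34 and 0 counts, or up to 0.709 CPM. A count of 0 allows up to 3 counts in a library, for counting error only. RAM replicates 1 and 4 held nearly all of them, and 2 RAM libraries were at 0 like the MAM libraries. An exact permutation test gave p = 0.167 (two-sided, n = 5 each). The gene was below the limit of 1 FPKM, so edgeR was not run on it, but in a fit without that limit it passed (adjusted p = 0.0253, edgeR), on 71 counts in all. Of the 8 plasmacytoid dendritic cell markers, 5 were tested, of which Ccr9 passed as lower in MAMs (log2 fold change -1.28). Tcf4 and Il3ra passed as higher (2.21 and 2.50), and 2 did not pass. Under the FPKM limit, Pacsin1 averaged 0.0604 CPM in MAMs and 1.87 in RAMs, and Spib 1.71 and 1.04. Klk1 had no counts in MAMs and none in 4 RAM libraries. The summed level of the 8 was 133.6 to 190.5 CPM in MAMs and 39.1 to 57.2 CPM in RAMs, most of it from Tcf4. Tcf4 and Il3ra are also expressed by other myeloid cells.

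The order of the levels per length differed between the groups. In RAMs, Siglec1 had 148 ± 10.5 FPKM (SD, n = 5), Siglecf 128 ± 15.0, Cd33 96.2 ± 4.84, Siglece 63.5 ± 7.89, Cd22 40.3 ± 2.43, Siglecg 1.27 ± 0.350 and Siglech 0.0842 ± 0.111. Among the neighbours in this order, the ranges of Siglec1 and Siglecf alone overlapped, though within libraries Siglec1 was the higher in 5 of 5. In MAMs, Siglec1 had 251.9 ± 16.7 FPKM, followed by Cd33 with 23.3 ± 5.38, Siglece with 14.2 ± 6.55, Cd22 with 5.23 ± 2.59, Siglecf with 1.45 ± 0.264 and Siglecg with 0.869 ± 0.746, and Siglech was listed at 0. The ranges overlapped for Cd33 and Siglece, for Siglece and Cd22, and for Siglecf and Siglecg, and no test was made between genes. Within libraries, Siglece was above Cd22 in 5 of 5, Cd33 above Siglece in 4 of 5 and Siglecf above Siglecg in 4 of 5. Siglecf was thus at rank 2 in RAMs and rank 5 in MAMs. The summed FPKM of the 7 genes was 297 ± 21.0 in MAMs and 477 ± 27.5 in RAMs, of which Siglec1 made up 84.8% in MAMs and 31.1% in RAMs. With CPM divided by the length of the longest annotated transcript in place of FPKM, Cd33 and Siglece changed places in both groups.

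**Figure D3:**
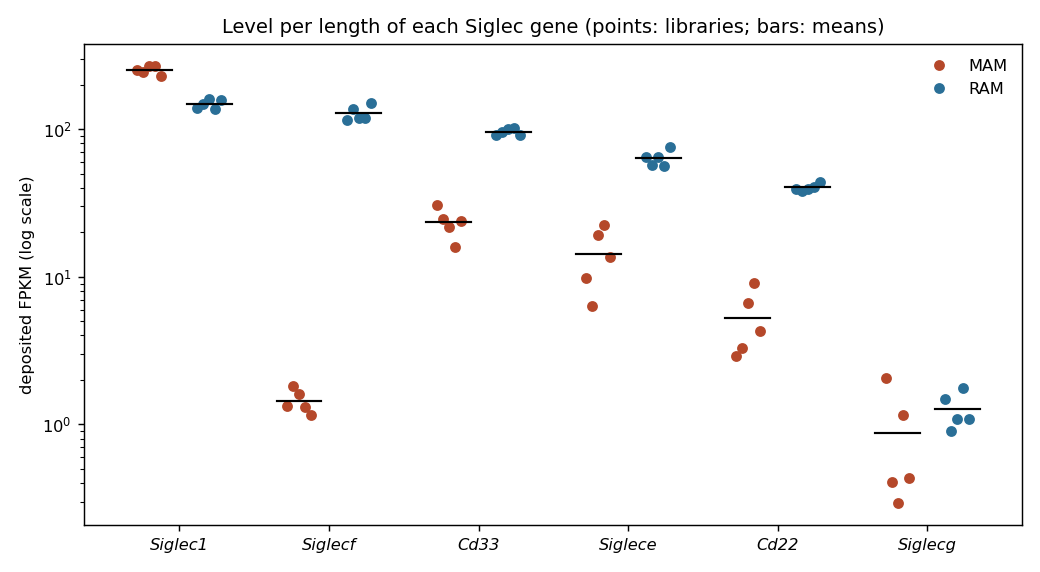
Deposited FPKM (y axis, log scale) of 6 Siglec genes in each MAM and RAM library, with bars at the means. Siglech, with 0 FPKM in MAMs, is left out. In RAMs 5 genes lie between 37.8 and 160 FPKM, while in MAMs Siglec1 stands alone above 200 FPKM and the next gene, Cd33, is at 15.9 to 30.9.

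In the genome, Siglecf, Siglecg, Cd33 and Siglece lie within 308.8 kb of chromosome 7. Of these, 3 fell and Siglecg, which lies between Siglecf and Cd33, did not pass the test. The tables held 12 other genes within these bounds, of which 5 were tested. All 5 were differentially expressed and lower in MAMs, against 15.1% of all tested genes. The log2 fold changes were -1.65 for Etfb, which encodes a subunit of the electron transfer flavoprotein, -2.89 for Vsig10l, -1.39 for Zfp658, -1.06 for Zfp719 and -4.11 for Ceacam18. Ceacam18 averaged 0.170 CPM in MAMs and 2.99 in RAMs, and Vsig10l 2.02 and 15.0. A gene was tested if its FPKM averaged 1 or more in either group, so one low in MAMs could enter through RAMs. These 5 genes were looked at after their values were seen, and they are given as a description. Cd22 lies farther off on the same chromosome, 18833 bases from Mag, the gene of the myelin-associated Siglec, whose level was between 2.16 and 6.80 CPM in MAMs and between 8.21 and 12.3 CPM in RAMs (log2 fold change -1.53, adjusted p = 0.00156, edgeR). Siglec15, the remaining Siglec gene examined, was under the FPKM limit.

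The 250 bases before the transcription start were read for the 6 Siglec genes with an entry in a RefSeq promoter table (GRCm38.p6), since 4 of these genes fell together. No entry matched Siglec1. Searched on both strands, the interferon response element core GAAANNGAA, found in 7.13% of all 32851 promoters of the table, and the PU.1 site GAGGAAGT, found in 2.44%, had no match before any of the 6 genes. The GAS element TTCNNNGAA, found in 7.02%, had 1 match, TTCTCTGAA, which began 123 bases before the start of Siglech. No match says only that these letters are not in these windows, and a match is no evidence of a site. The windows of Siglecf and Cd33 shared a run of 16 bases, AAAGTGGAAGTGTTTA, on the coding strand of each, which began 27 bases before the start of Siglecf and 157 bases before that of Cd33. Over the 15 pairs of genes, the next longest shared run was 10 bases. These were the 2 entries with this run among the 32851. The run was found after the values were seen, and no role was tested. The 2 windows are shown with the shared run in capitals, chr7:43351091-43351340 on the plus strand for Siglecf and chr7:43533172-43533421 on the minus strand for Cd33, the latter within the annotated span of the gene.
Siglecf: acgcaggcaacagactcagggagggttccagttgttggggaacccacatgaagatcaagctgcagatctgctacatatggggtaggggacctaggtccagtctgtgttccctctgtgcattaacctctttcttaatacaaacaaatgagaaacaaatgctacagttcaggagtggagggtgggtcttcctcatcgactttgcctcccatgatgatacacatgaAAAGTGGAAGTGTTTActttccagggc
Cd33: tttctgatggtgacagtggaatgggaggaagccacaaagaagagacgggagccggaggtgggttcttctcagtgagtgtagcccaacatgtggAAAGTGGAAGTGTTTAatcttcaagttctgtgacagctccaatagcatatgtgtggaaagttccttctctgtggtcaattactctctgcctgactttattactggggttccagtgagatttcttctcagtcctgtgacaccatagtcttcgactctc

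The genes that act with Siglecs were described by lists for the ligand side and for signalling. Beside the counts of each list stand 28.9% of all tested genes passing as higher and 27.3% as lower. The share differentially expressed and higher was 15.3%. Sialyltransferases, the enzymes that place sialic acid on glycans and so make Siglec ligands, differed most. Of the 20 sialyltransferase genes listed, 11 were tested, of which 9 passed as higher in MAMs, none as lower and 2 did not pass, with a median log2 fold change of 1.60. There were 7 that were also differentially expressed and higher. The summed level of the 20 genes was 747 to 923 CPM in MAMs and 236 to 308 CPM in RAMs, so every MAM library was above every RAM library.

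St8sia6, which adds alpha-2,8-linked sialic acid, rose most. It had 40.5, 33.2, 22.5, 13.3 and 22.4 CPM in MAM libraries and 0.206, 0.105, 0.0414, 0.313 and 0.0639 in RAM libraries, or 7.48 ± 0.488 in log2 (standard error, adjusted p = 4.1e-09, edgeR). St3gal5, the synthase of the ganglioside GM3, had 75.1 to 148 CPM in MAMs and 0.426 to 1.48 CPM in RAMs, and its log2 fold change was 6.67. The RAM level was 0.552% of that in MAMs for St8sia6, on 2 to 15 counts per library, and 0.977% for St3gal5. For genes over 1000 CPM in MAMs, the lowest such level was 0.912%. The source of the RAM reads of St8sia6 and St3gal5 was not tested. St3gal6 rose by 3.08 on the log2 scale. St3gal1, which caps O-linked glycans and had the highest FPKM of the list, had 323 to 379 CPM in MAMs and 125 to 149 CPM in RAMs, a log2 fold change of 1.33. The groups did not overlap for any of these 4 genes, as for 44.9% of all tested genes. The genes were named for large changes or a high level.

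The genes that make and activate sialic acid did not move as a group. Of 6 tested, 1 passed as higher, 2 as lower and 3 did not pass, and the median log2 fold change was -0.34. Gne, the enzyme that starts sialic acid synthesis, had 12.4 to 18.5 CPM in MAMs and 37.0 to 47.9 CPM in RAMs and fell by 1.44 on the log2 scale (adjusted p = 7.9e-07, edgeR). Cmas, which activates sialic acid to CMP-sialic acid, rose by 0.42, though it did not pass when counts were scaled by library totals alone (0.19). Renbp, which acts on a precursor, had a log2 fold change of -0.35. Its call was lost when MAM replicate 2 or 3 or RAM replicate 5 was left out (-0.27, -0.30 and -0.32, adjusted p = 0.0537, 0.0576 and 0.0506, edgeR). Of the genes that remove, release or export sialic acid, 4 were tested, of which 1 passed as higher and 2 as lower, with a median of -0.28. Neu1, the lysosomal sialidase, fell by 0.47. Slc17a5, the lysosomal sialic acid exporter, was at -0.32 and Ctsa, the protective protein of Neu1, at 0.20. The call of Slc17a5 was lost when any one of MAM replicates 1 to 3 or RAM replicates 1, 3, 4 and 5 was left out (log2 fold changes from -0.33 to -0.26), and also with edgeR's own filter and without a filter (adjusted p = 0.0548 and 0.0684, edgeR). The call of Ctsa was lost without MAM replicate 3 or 4 or RAM replicate 2, 3 or 4 (0.16 to 0.20), and its difference was 0.04 under upper-quartile normalization and -0.02 with library totals alone.

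Of 6 tested genes for sialylated proteins that Siglecs are known to bind, 1 passed as higher and 3 as lower, with a median of -0.56. Cd52, which encodes a short sialylated glycoprotein known as a ligand of human Siglec-10, rose from 71.8 ± 6.89 CPM in RAMs to 299 ± 53.1 in MAMs (SD, n = 5 each), a log2 fold change of 2.06. Spn, the gene of CD43, was lower by a log2 fold change of -1.17, with MAM replicate 4, at 46.0 CPM, the closest to the lowest RAM library at 49.7. Muc1 was at -1.59, and its call (adjusted p = 0.045, edgeR) was lost without any one of MAM replicates 2 to 5 or RAM replicates 1 to 4 (log2 fold changes from -1.67 to -1.31), and with edgeR's own filter, without a filter and after the subtraction of 1% (adjusted p = 0.057, 0.0626 and 0.0576, edgeR).

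On the signalling side, 7 of 8 genes listed for inhibitory Siglec signalling passed as higher and none as lower, with a median log2 fold change of 0.57, and 1 of them, Socs3, was differentially expressed. Socs3, a feedback inhibitor of cytokine signalling, had 68.4 to 117 CPM in MAMs and 1.88 to 6.59 CPM in RAMs, 4.43 higher on the log2 scale. Inpp5d, the gene of SHIP1, rose by 0.76 and Ptpn11, the gene of SHP-2, by 0.63. Lyn, the kinase that phosphorylates inhibitory tails and the list's gene of highest FPKM, rose by 0.54. Ptpn6, the gene of SHP-1, was at 200 ± 26.2 CPM in MAMs and 203 ± 24.4 in RAMs (SD, n = 5 each) and did not pass (log2 fold change -0.02). Over the alternative fits, 5 to 7 genes of this list passed as higher and 0 to 1 as lower.

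Of 9 genes for activating signalling, 5 passed as higher and 2 as lower, with a median of 0.23. Under upper-quartile and total-count scaling, 2 passed as higher and 3 as lower. Without 1 library, the counts were 2 to 5 higher and 1 to 3 lower, with the fewest, 2 higher and 1 lower, without MAM replicate 5, and 3 higher and 2 lower without RAM replicate 2 or 3. Src rose by 2.26 from 0.810 CPM in RAMs, and Fyn by 1.01. Tyrobp, the gene of DAP12, with which Siglec-H pairs, had the highest FPKM of the list, 2224 in MAMs and 1968 in RAMs. Its log2 fold change was 0.23 (adjusted p = 0.0257, edgeR), and it did not pass without any one of MAM replicates 2 and 5 and RAM replicates 2 and 3 (log2 fold changes of 0.21, 0.19, 0.21 and 0.18, adjusted p = 0.0547, 0.0711, 0.0602 and 0.0786, edgeR). The difference in Tyrobp was 0.06 under upper-quartile normalization and 0.00 with library totals alone (adjusted p = 0.509 and 0.979, edgeR), and it did not pass in either limma fit (0.18 in both, adjusted p = 0.213 and 0.187). The adaptor of Siglec-H was thus abundant in libraries where Siglech was close to or at 0.

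**Figure D4:**
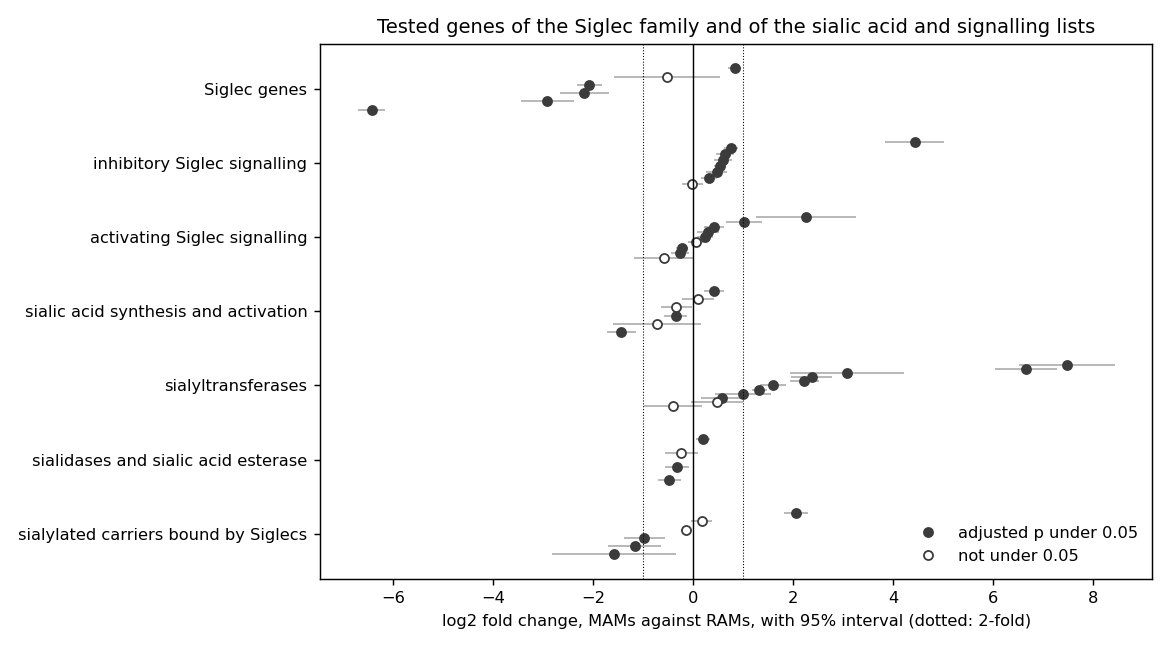
Log2 fold change of MAMs against RAMs (x axis, with 95% intervals) for each tested Siglec gene and for each tested gene of 6 lists (y axis). Filled points have an adjusted p under 0.05 and dotted lines mark 2-fold. The Siglec genes spread from -6.44 to 0.83, and the sialyltransferases from -0.40 to 7.48.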

How the data were processed

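The sample labels put 5 libraries in the MAM group and 5 in the RAM group. The authors aligned reads to GRCm38 with TopHat2 2.0.13, counted reads per gene with HTSeq 0.6.1 on UCSC RefGene models and deposited the counts without normalization. The authors also deposited FPKM values from Cufflinks 2.2.1, scaled by transcript length and library size. The submitters' processing notes also name DESeq2 1.6.3. The strand setting of the counting is not given in the sources used here. Lines naming no gene were left out, 54.6% to 58.3% of the lines in MAM libraries and 62.2% to 64.1% in RAM libraries. TMM factors were 0.8975 to 0.9428 in MAM libraries and 1.066 to 1.095 in RAM libraries.

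Tests covered genes whose FPKM averaged 1 or more in either group, and were made with edgeR 4.0.16 (quasi-likelihood, TMM, R 4.3.3), and log2 CPM used a prior count of 2. The fold limit of 2 and the adjusted p limit of 0.05 follow the study, which used DESeq2. The scripts were tested on simulated data. Members, lists, tests and alternatives were chosen with earlier results of these data known. Every Siglec gene was named, with the 3 largest passing changes and the highest FPKM of each other list and the 3 genes closest in pattern to the Siglec genes with the highest and the lowest log2 fold change. Lists covered the markers and pathways named in the report and tumour and lung epithelial markers. Of these epithelial markers, 5 of 6 tested passed as lower in MAMs, against 27.3% of all tested genes. The 5 were Epcam, Krt19, Sftpc, Sftpb and Scgb1a1. Krt18 did not pass (log2 fold change 3.93, adjusted p = 0.0715, edgeR). Krt8, under the FPKM limit, averaged 1.48 CPM in MAMs and 0.0453 CPM in RAMs. Of monocyte markers, 6 of 6 passed as higher, against 28.9% of all tested genes. Their sums were 829 to 994 CPM in MAMs and 19.3 to 37.1 CPM in RAMs. Of eosinophil markers Alox15 alone was tested and passed as higher, and of neutrophil markers S100a8 and S100a9 did. Alternatives were DESeq2 1.42.0, RLE, upper-quartile and total-count scaling, other filters, the replicate number as a block, limma 3.58.1 on log2(FPKM + 1) and log2(FPKM + 0.1), subtraction of 1% of the other group, and each library left out in turn. Gene positions came from GENCODE M21. Protein sequences were not analysed here. Some genes that the rule for named genes picks are not reported here. Intervals and limits for counts of 0 cover counting error only, since reads carried no molecular identifiers. Figures used matplotlib 3.10.9.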

Additional observations from a re-analysis of the deposited data

Results flagged for a closer look

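The check given here covers the Siglec genes, Mag and the named genes of the sialic acid and signalling lists. It leaves out the cell type and sorting markers. In 2 of these genes, 1 RAM library stood apart from the other 4. Its gap to its nearest neighbour was larger than 0.71 of the group's range, the 95% limit of Dixon's test for 5 samples. Ptpn11 was at 102.6 CPM in RAM replicate 4 (0.815 of the range), and St3gal1 was at 124.7 CPM in RAM replicate 2 (0.759 of the range). Chance alone flags about 1 in 20 groups. No Siglec gene had such a library.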

How the results depend on the processing

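For the 6 tested Siglec genes, 126 log2 fold changes under alternatives all kept their direction and side of the threshold. Leaving out 1 library at a time gave 0.80 to 0.86 for Siglec1, -6.53 to -6.36 for Siglecf, -2.39 to -1.996 for Siglece, -1.15 to -0.31 for Siglecg, -3.23 to -2.77 for Cd22 and -2.17 to -1.97 for Cd33. Other alternatives gave 0.61 to 0.86 for Siglec1, -9.24 to -5.72 for Siglecf (both ends by construction, from the subtraction of 1% and from a pseudocount of 1), -2.39 to -2.16 for Siglece, -0.89 to -0.35 for Siglecg, -3.13 to -2.82 for Cd22 and -2.31 to -2.02 for Cd33. Without MAM replicates 3 and 4 together, Siglece (-2.66), Cd22 (-3.515) and Cd33 (-1.91) lay outside both of their ranges. Upper-quartile and total-count scaling moved all genes by a median of -0.17 and -0.23 on the log2 scale. With CPM per kilobase, 2 genes left their FPKM order in MAMs and 2 in RAMs. Without the filter, Siglech passed. The numbers of the replicates paired no samples: same-numbered libraries correlated at -0.037 to 0.029, and 2 of 5 correlated best with their own number. The replicate block gave 0.83 for Siglec1, -6.44 for Siglecf, -2.29 for Siglece, -0.89 for Siglecg, -3.06 for Cd22 and -2.10 for Cd33. With it, Slc17a5 and Ctsa had adjusted p = 0.0556 and 0.0503 (edgeR). Differentially expressed genes numbered 3511, and 4672 without the filter. Of the 3 genes nearest to Siglecf, 2 were kept under upper-quartile normalization. Of sialyltransferases, 7 to 9 were differentially expressed and higher across alternatives. Precision is limited for Siglecg and Siglech by low counts.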
